A study of Homo sapiens with 2 samples.

Results

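The peaks described here are those called on chromosomes 13, 14, 15, 21 and 22 with a summit below position 20000000, the stretch that holds the short arms and centromeres of the human acrocentric chromosomes. They numbered 399 of 1936 called peaks in DNA from unirradiated cells (0 Gy) and 302 of 1525 in DNA from irradiated cells (20 Gy). The cells were HaCaT, an immortalised human keratinocyte line of skin origin, grown in serum-containing DMEM. They were left untreated or given 20 Gy of X-rays, with 4h in the name of the irradiated sample and no statement of when that time began. Sheared, formaldehyde-fixed chromatin was recovered with an antibody to AIM2, a DNA sensor of the inflammasome, and sequenced (ChIP-seq), with 1 library per group and no control library. With 1 library per group no difference between the libraries could be tested against replicate spread, and intervals below are 95% intervals that treat peaks and fragments as independent and cover counting error only.

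Acrocentric chromosomes carry their centromere close to one end, and their short arms hold the tandem copies of the 45S ribosomal RNA gene that form nucleoli. Their centromeres consist largely of alpha satellite, a tandemly repeated satellite DNA that forms long arrays, and related arrays occur on several of these chromosomes. Pericentromeric sequence beside the arrays is rich in segmental duplications, so that pseudogenes and gene families such as FAM230, whose members are annotated as long non-coding RNA genes, recur in near-identical copies. Fragments from such sequence can be placed on the wrong copy.

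The promoter windows that a peak covered in this region both belonged to FAM230 genes, and their sequences are shown because they are near-identical over most of their length. Each window runs from 250 bases before to 50 bases after an annotated start (RefSeq, GRCh38.p14), 5′ to 3′ on the strand of the gene, and capitals mark the bases under the 0 Gy peak. The FAM230E window lies at chr22:18733685-18733984 on the plus strand and the FAM230F window at chr22:18894382-18894681 on the minus strand. FAM230F has other annotated starts, with windows beginning at 18892922 and 18896715. The FAM230F window printed here belongs to a start inside the gene, which spans 18865042 to 18896764.
FAM230E: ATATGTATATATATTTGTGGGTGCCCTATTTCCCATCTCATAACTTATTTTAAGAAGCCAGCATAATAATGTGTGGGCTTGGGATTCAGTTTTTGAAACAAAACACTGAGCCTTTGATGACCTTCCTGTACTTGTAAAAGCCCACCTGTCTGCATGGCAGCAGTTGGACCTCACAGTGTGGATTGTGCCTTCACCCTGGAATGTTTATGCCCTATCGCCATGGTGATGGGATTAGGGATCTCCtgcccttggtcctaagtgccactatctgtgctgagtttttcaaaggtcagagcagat
FAM230F: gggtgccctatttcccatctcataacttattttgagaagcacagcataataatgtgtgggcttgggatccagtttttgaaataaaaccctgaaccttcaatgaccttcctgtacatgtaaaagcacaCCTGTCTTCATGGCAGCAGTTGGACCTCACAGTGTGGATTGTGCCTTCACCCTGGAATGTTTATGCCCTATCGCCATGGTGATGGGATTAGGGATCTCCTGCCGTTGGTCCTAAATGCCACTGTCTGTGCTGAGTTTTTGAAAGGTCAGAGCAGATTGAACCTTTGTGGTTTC
The windows were 95% identical over 282 aligned bases, whereas the FAM230C window aligned with either over 41 bases at 68.3% identity. Whether fragments were placed on the wrong copy was not tested. A run of 95 bases found in both occurred in 4 of 35116 promoter windows (0.0114%), those of FAM230B, FAM230E, FAM230F and FAM230G. Of 210 promoter windows in the region, these 2 held a 0 Gy peak.

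Among nuclear peaks 20.7% at 0 Gy were members (399 of 1929, exact binomial interval 18.9 to 22.6). At 20 Gy the share was 19.9% (302 of 1518, 17.9 to 22). The peak caller kept 8786091 fragments at 0 Gy and 6423989 at 20 Gy, which gave 45.4 and 47.0 members per 1000000 kept fragments. The caller also required peaks of at least 177 bp at 0 Gy and 170 bp at 20 Gy, and 25 of the 20 Gy members were shorter than 177 bp. Chromosome 22 held 113 members at 0 Gy (exact Poisson interval 93.1 to 136) and 94 at 20 Gy (76.0 to 115). Chromosome 21 held 110 (90.4 to 133) and 82 (65.2 to 102). Chromosome 13 held 99 (80.5 to 121) and 68 (52.8 to 86.2), and chromosome 14 held 70 (54.6 to 88.4) and 55 (41.4 to 71.6). Chromosome 15 stood apart with 7 (2.81 to 14.4) and 3 (0.619 to 8.77), none of them at the same place in both libraries.

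Peak height was taken as the deposited pileup, the number of fragments over the summit, and, scaled for depth, as pileup per 1000000 kept fragments. The median member had a pileup of 13 at 0 Gy and 12 at 20 Gy, or a depth-scaled height of 1.48 and 1.87. The other nuclear peaks had median depth-scaled heights of 1.82 and 2.18. The lowest called pileup was 6 at 0 Gy and 5 at 20 Gy, or 0.683 and 0.778 scaled for depth. These medians come from lists cut at different scaled heights, so they are not like for like between the libraries. Depth-scaled heights under 3 made up 85.7% of the members at 0 Gy and 80.1% at 20 Gy. Only 2 members in each library exceeded a depth-scaled height of 50, and the next highest had 16.7 and 12.9.

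The sequence under these peaks outside promoter windows and cytogenetic bands were not used here, so the label of short arm and centromere was checked against gene annotation alone. On each chromosome the annotation leaves an interval of 1000000 bp or more without genes, at 16057623 to 18343037 on chromosome 14, 10649836 to 13038165 on chromosome 21 and 12815794 to 15264488 on chromosome 22. On chromosomes 13 and 15 it ended at 18176736 and 19883613, and the gene table does not place its start with certainty. Where a chromosome had several such intervals, the one holding the most member summits of both libraries was taken. The counts inside them therefore partly reflect that choice. These gene-free intervals held 350 of the 399 members at 0 Gy and 257 of the 302 at 20 Gy. The side towards the short arm held 42 and 38, all on chromosomes 21 and 22. On chromosomes 13 and 15 every summit before the end of the interval was counted inside it. A short-arm side could therefore not be told apart there, and its lack of peaks is not a result. The side towards the long arm held 7 in each library, to which the label does not apply. Median pileup was 33.5 at 0 Gy and 29 at 20 Gy on the short-arm side, against 13 and 11 in the gene-free intervals. Fold enrichment over the local background was no higher on the short-arm side. Its median was 6.59 at 0 Gy and 6.01 at 20 Gy, against 6.78 and 6.56 in the gene-free intervals. The plot of peak height along the chromosomes shows the crowded low peaks of the intervals and the sparser, higher ones beside them.

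**Figure D1:**
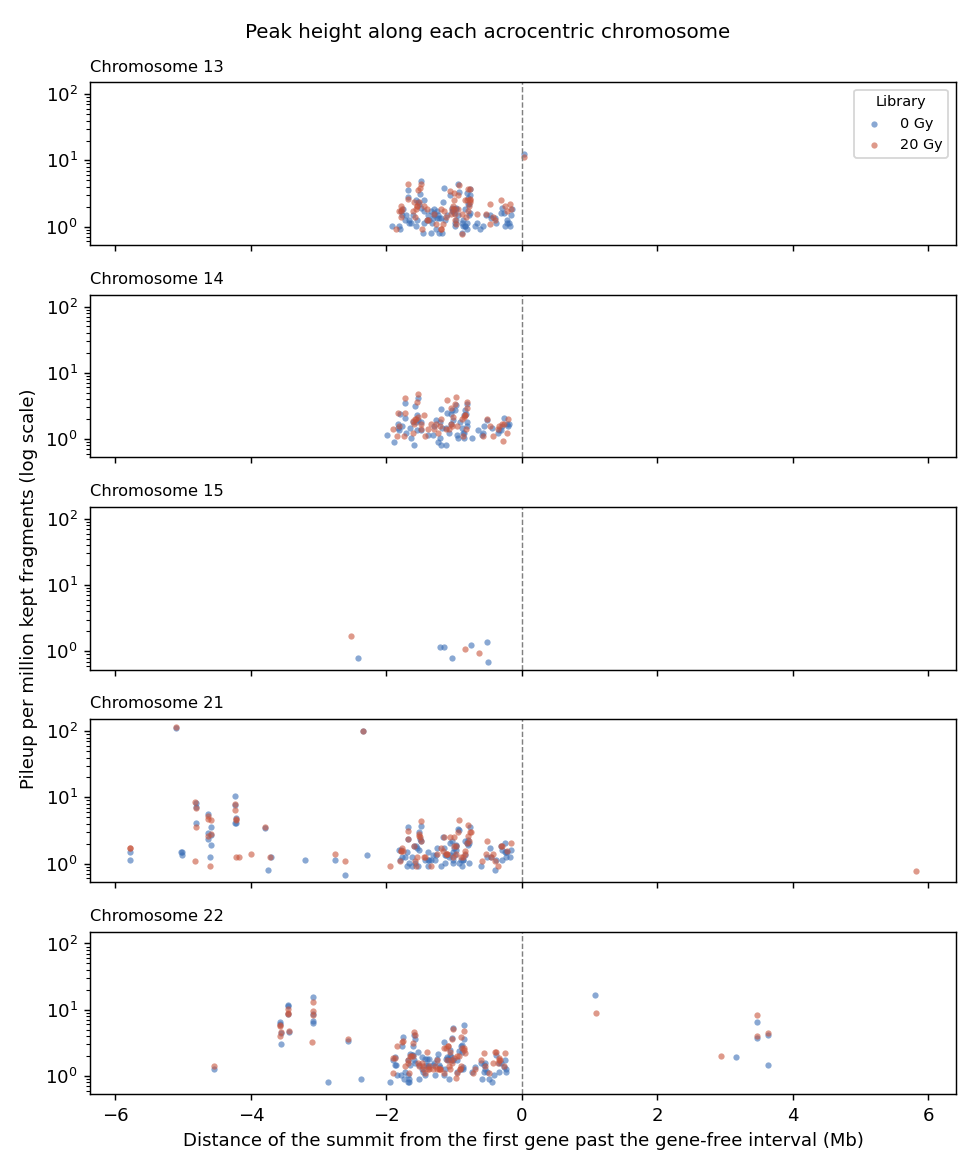
Height of each member peak (pileup per 1000000 kept fragments, log scale) against the distance of its summit in Mb from the first annotated gene past the gene-free interval (dashed line), for the 0 Gy (blue) and 20 Gy (red) libraries on each acrocentric chromosome. Chromosomes 13, 14, 21 and 22 carry a similar crowd of peaks within 2 Mb before that gene, chromosome 15 carries 7 and 3 peaks, and the 2 far higher peaks, between 99.5 and 117, lie on chromosome 21.

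Within the gene-free intervals the peaks of chromosomes 13, 14, 21 and 22 recurred at matching positions. This was found after the values were seen, by searching each pair of chromosomes for the constant shift of coordinates that brings the most summits within 100 bp of each other. In the 0 Gy library 1 shift matched 51 summits of chromosomes 13 and 21, or 52.0% of the 98 on chromosome 13 and 61.4% of the 83 on chromosome 21. Chromosomes 13 and 22 matched at 51 summits, 21 and 22 at 50, 13 and 14 at 48, 14 and 21 at 43, and 14 and 22 at 43. The same shifts, applied to the 20 Gy library without a new search, matched 32 to 38 summits in the 6 pairs. A search in the 20 Gy library alone gave shifts that differed from those of the 0 Gy library by 3 to 16 bp. The shift, taken as the coordinate on chromosome 13 minus that on the other chromosome, was 5135439 bp for chromosome 21, 2996937 bp for 22 and -122278 bp for 14. With chromosome 15 no shift matched more than 2 summits. It had only 7 summits at 0 Gy and 3 at 20 Gy, too few to show whether it lacks the pattern. With chromosome 10, whose 178 peaks at 0 Gy were searched the same way, no shift matched more than 10. The shifts found with those chromosomes differed by 131259 bp or more between the libraries.

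Shifted onto a common scale, the matching stretch spanned 1703449 bp and held 337 of the 399 members at 0 Gy (84.5%) and 252 of the 302 at 20 Gy (83.4%). The 337 peaks at 0 Gy fell on 160 distinct positions, of which 31 carried a peak on all 4 chromosomes, 24 on 3, 36 on 2 and 69 on 1. The 252 peaks at 20 Gy fell on 123 positions, with 22, 19, 24 and 58 in the same order. Peaks with a counterpart on another chromosome in the same library thus made up 79.5% at 0 Gy and 77.0% at 20 Gy. Whether the assembly holds copies of one sequence at these positions, and how fragments were divided among them, was not tested, since no sequence of these stretches was used. The members on these chromosomes may therefore not be independent of each other, and the binomial and Poisson intervals given here, which treat each peak as independent, may be too narrow.

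**Figure D2:**
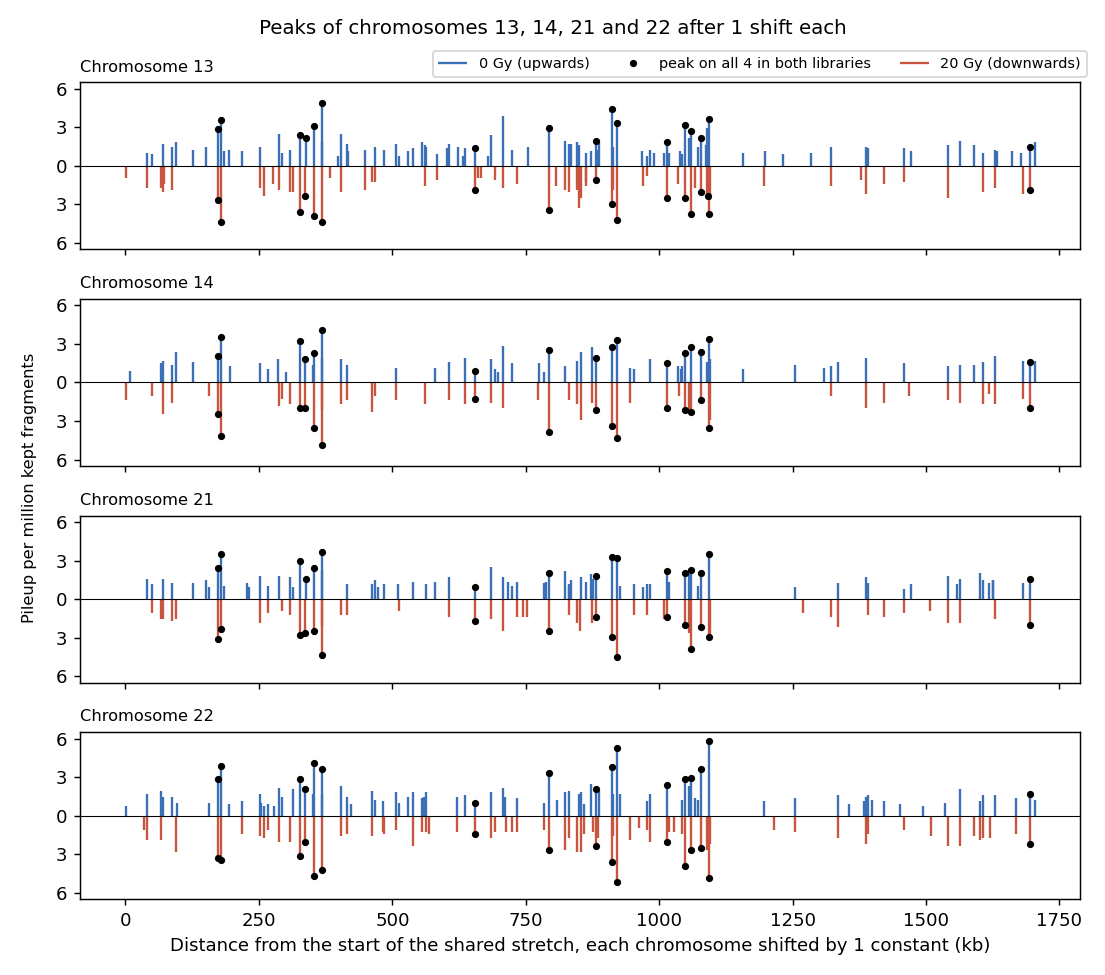
Peaks in the gene-free intervals of chromosomes 13, 14, 21 and 22, each chromosome shifted by 1 constant, with height (pileup per 1000000 kept fragments) drawn upwards for 0 Gy and downwards for 20 Gy against the distance from the start of the shared stretch (kb). Black dots mark the 17 positions with a peak on all 4 chromosomes in both libraries, which line up from row to row.

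Heights were also close at the corresponding positions where all 4 chromosomes had a called peak. Positions with an uncalled chromosome are left out, so the closeness partly reflects that condition. At the 31 positions with a peak on all 4 chromosomes at 0 Gy, the median pileup was 19 on chromosome 13, 17 on 14, 18 on 21 and 19 on 22, and the highest of the 4 pileups was in the median 1.5 times the lowest (range 1.10 to 2.40). At the 22 such positions at 20 Gy this ratio was 1.63 (1.15 to 2.14). The highest peak of chromosome 14, at 16812279 to 16812559, belonged to one of these positions. Its pileups were 43, 36, 32 and 32 on chromosomes 13, 14, 21 and 22 at 0 Gy, and 28, 31, 28 and 27 at 20 Gy. Summed over the 4 chromosomes this gave 143 and 114 fragments, a depth-scaled ratio of 1.09 (exact conditional interval 0.845 to 1.40). At another, on chromosome 22 at 14244653 to 14244981, the 0 Gy pileups were 29, 29, 28 and 46 and the 20 Gy pileups 27, 28, 29 and 33, with chromosome 22 the highest in both. Over the 17 positions with a peak on all 4 in both libraries the median ratio of the sums was 1.09 (range 0.790 to 1.48). Of the 17, 12 were higher at 20 Gy, where 59.1% of all nuclear pairs were. The lowest depth-scaled height of a called member was 0.683 at 0 Gy and 0.778 at 20 Gy. Whether the need for a call on all 4 chromosomes in both libraries raised these ratios was not tested.

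Of the members, 211 in each list overlapped a peak of the other library by at least 1 bp. At 0 Gy this was 52.9% (47.9 to 57.9) and at 20 Gy 69.9% (64.3 to 75), near the shares in the whole lists, 54.4% and 69.3%. Overlap followed height. Under a depth-scaled height of 1.5, 30.1% of the 0 Gy members and 48.0% of the 20 Gy members were shared. From 1.5 to 3 the shares were 69.9% and 74.6%, and from 3 they were 94.7% and 95%. The other nuclear peaks followed height too, with 24.5% and 32.6% shared under 1.5, 60.5% and 69.5% from 1.5 to 3, and 92.2% and 95.3% from 3. On the short-arm side 76.2% (60.5 to 87.9) and 81.6% (65.7 to 92.3) were shared, in the gene-free intervals 50% (44.6 to 55.4) and 68.5% (62.4 to 74.1). Many peaks found in 1 library only had a counterpart in the other library at the corresponding position of another chromosome. This held for 87 of the 163 unshared 0 Gy peaks of the matching stretch (53.4%) and for 52 of the 77 unshared 20 Gy peaks (67.5%). Counted by position, 99 were occupied in both libraries, which is 61.9% (53.9 to 69.4) of the 160 found at 0 Gy and 80.5% (72.4 to 87.1) of the 123 found at 20 Gy. Over all members, with corresponding positions counted once, overlap was 61.3% and 78.0%, outside the intervals given above. A position counted as shared with a peak of the other library on any of the 4 chromosomes. That condition is easier to meet than overlap of single peaks, so the shares are not like for like. Every position with a peak on all 4 chromosomes in one library had a peak in the other on at least 1 of them. Positions with a peak on 1 chromosome only were occupied in the other library less often. This held for 20 of 69 at 0 Gy (29.0%) and 35 of 58 at 20 Gy (60.3%).

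The height of shared peaks relative to depth was similar in the libraries. Over 210 overlapping pairs the median depth-scaled ratio of 20 Gy to 0 Gy was 1.06, with an interquartile range of 0.912 to 1.26 and extremes of 0.442 and 2.15. The other 836 nuclear pairs also had a median of 1.06. Of the member pairs 128 were higher at 20 Gy (61.0%), against 59.1% of all nuclear pairs. The ratio of fold enrichments lay on the other side of 1, with a median of 0.945 over the member pairs and 0.954 over all nuclear pairs. Median depth-scaled ratios were 1.17 on chromosome 13, 1.12 on 14, 1.05 on 21 and 1.05 on 22. A pileup of at least 20 in both libraries was reached by 55 of the 210 member pairs and 369 of the 836 others. Lower pileups give wider intervals, which limits the next comparison. No member pair had an interval above 1, where 1.63% of all nuclear pairs did. The interval lay below 1 in 1 member pair, where 1.05% of all nuclear pairs did.

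That pair lay on chromosome 13 at 17029064 to 17029386, with a pileup of 34 at 0 Gy and 11 at 20 Gy and a depth-scaled ratio of 0.442 (0.202 to 0.894). At the corresponding positions of chromosomes 14, 21 and 22 pileups were 25, 15 and 19 at 0 Gy, and 13, 16 and no called peak at 20 Gy. The value of chromosome 13 was thus the highest of the 4 at 0 Gy and the lowest of the 3 called at 20 Gy. Among pairs with a pileup of at least 20 in both libraries, the highest ratios were 1.71 (0.912 to 3.25) at chromosome 21, 12245153 to 12245408, 1.64 (0.933 to 2.91) at 8404075 to 8404388 beside a ribosomal DNA copy, and 1.57 (0.826 to 3.02) at chromosome 14, 16797074 to 16797353. The first had pileups of 20 and 25 on chromosome 21, where chromosomes 13, 14 and 22 had 24, 24 and 26 at 0 Gy and 24, 15 and 17 at 20 Gy, and the sum over the 4 gave 1.18 (0.865 to 1.60). The third had 20 and 23 on chromosome 14, where chromosomes 13, 21 and 22 had 27, 21 and 36 at 0 Gy and 25, 16 and 30 at 20 Gy, and the sum gave 1.24 (0.925 to 1.65). The lowest ratios were 0.744 (0.527 to 1.04) at chromosome 22, 11814333 to 11814965, 0.758 (0.528 to 1.08) at chromosome 21, 8807009 to 8807425, and 0.831 (0.514 to 1.32) at chromosome 22, 14416200 to 14417124. All 6 of these intervals include 1. The peak at 14416200 to 14417124 had pileups of 51 and 31 on chromosome 22. At the corresponding positions chromosomes 13, 14 and 21 had 32, 30 and 31 at 0 Gy and 24, 23 and 19 at 20 Gy. The sum over the 4 gave 0.921 (0.705 to 1.20).

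**Figure D3:**
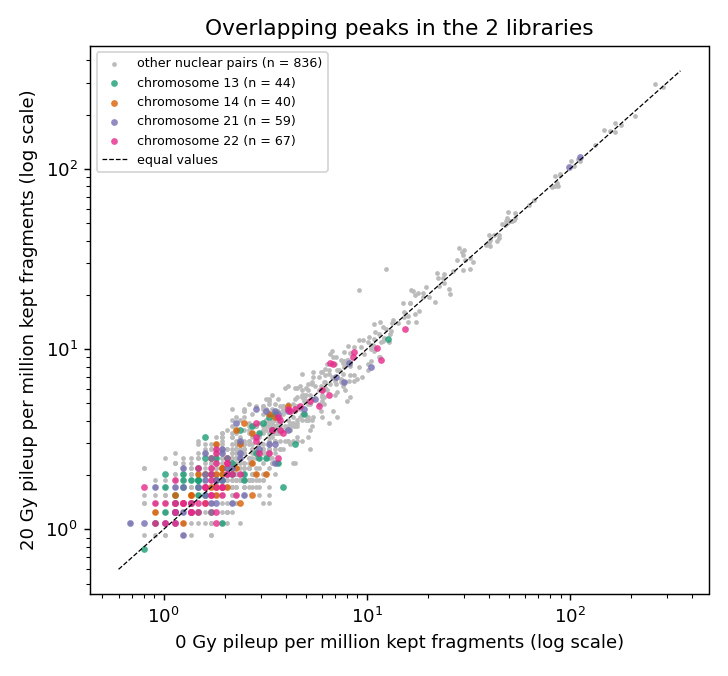
Pileup per 1000000 kept fragments of each pair of overlapping peaks at 0 Gy (horizontal) and 20 Gy (vertical), on log scales, with members coloured by chromosome and the 836 other nuclear pairs in grey. The dashed line marks equal values, and both the member pairs and the grey ones scatter about it, with a median ratio of 1.06 each.

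The highest members lay on chromosome 21, away from genes. The peak at 7926102 to 7926690 had a pileup of 981 at 0 Gy (921 to 1044) and 754 at 20 Gy (701 to 810), with fold enrichments of 32.2 and 34.5 over local background as the authors give them. Its nearest annotated gene, LOC105379505, was 69401 bp away. The peak at 10692710 to 10693071, at the start of the gene-free interval and 42988 bp from the immunoglobulin pseudogene IGHV1OR21-1, had pileups of 874 (817 to 934) and 654 and fold enrichments of 35.1 and 34.7. Their summits stood at the same base in both libraries, and their depth-scaled ratios were 1.05 (0.955 to 1.16) and 1.02 (0.923 to 1.13). Among all nuclear peaks the first ranked 11 at 0 Gy and 10 at 20 Gy by pileup.

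Few members lay in genes, and most lay in the gene-free intervals, where by definition none can. The shares below therefore largely reflect the region chosen. A summit fell in an annotated gene in 7 of 399 members at 0 Gy (1.75%, 0.708 to 3.58) and 8 of 302 at 20 Gy (2.65%, 1.15 to 5.15), against 5.95% and 7.73% of the other nuclear peaks. None fell in a protein-coding gene, which allows a share of up to 0.920% and 1.21% by the exact binomial interval. Of 41 genes in the region from families typical of pericentromeric duplications (POTE, TPTE, BAGE, ANKRD20A, DUX4 copies and others), BAGE2 and DUX4L44 held a summit, both of them in both libraries. Over all 595 annotated genes of the region, 7 held a summit at 0 Gy and 10 at 20 Gy. DUX4L44, a pseudogene of the DUX4 homeobox family on chromosome 22, had pileups of 30 and 23, and BAGE2, a transcribed pseudogene of a melanoma antigen family on chromosome 21, had 6 and 7. The long non-coding RNA gene LOC101930100 had a pileup of 11 at 0 Gy alone, and the pseudogene PPIAP22, on the long-arm side of chromosome 21, had 5 at 20 Gy alone.

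Within the 45S ribosomal RNA genes peaks were few and low. The gene table places 3 full copies on chromosome 21, RNA45SN2, RNA45SN3 and RNA45SN1, each with the 18S, 5.8S and 28S genes, and the copies of the other acrocentric chromosomes were not analysed here. At 0 Gy 1 peak lay in a copy, in the 18S gene RNA18SN1 with a pileup of 11 (5.49 to 19.7). At 20 Gy 2 did, in RNA18SN2 with a pileup of 7 (2.81 to 14.4) and in RNA18SN1 with 6 (2.20 to 13.1). All of them covered the same part of the 18S gene of 1869 bp, bases 993 to 1207, 993 to 1205 and 1016 to 1205.

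Higher peaks lay just past the 3′ end of each 45S gene, where the intergenic spacer begins and where, in human cells, transcription by RNA polymerase I terminates. These were picked out after their values were seen. Past RNA45SN2 summits stood 727 and 1963 bp from the gene end at 0 Gy, with pileups of 72 and 36, and at 683 and 1981 bp at 20 Gy, with 54 and 23. Past RNA45SN3 they stood at 309, 1071 and 1903 bp at 0 Gy, with pileups of 49, 21 and 25, and at 322, 1111 and 1842 bp at 20 Gy, with 34, 17 and 30. Past RNA45SN1 they stood at 404, 1067 and 1890 bp at 0 Gy, with pileups of 24, 17 and 31, and at 1122 and 1862 bp at 20 Gy, with 18 and 29. A summit within 1842 to 1981 bp thus occurred past all 3 copies in both libraries, and the first RNA45SN2 peak at 0 Gy ran from 310 to 1308 bp, a span that holds the summits at 404, 1067 and 1071 bp past the other copies. A further peak lay 15177 bp past RNA45SN2, with pileups of 62 and 45 and fold enrichments of 22.8 at 0 Gy and 21.8 at 20 Gy. Counting it, the peaks past the 3 copies numbered 9 at 0 Gy, 8 of them shared, and 8 at 20 Gy, all shared. Fragments can be placed on any of the copies, so heights of single copies are uncertain.

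**Figure D4:**
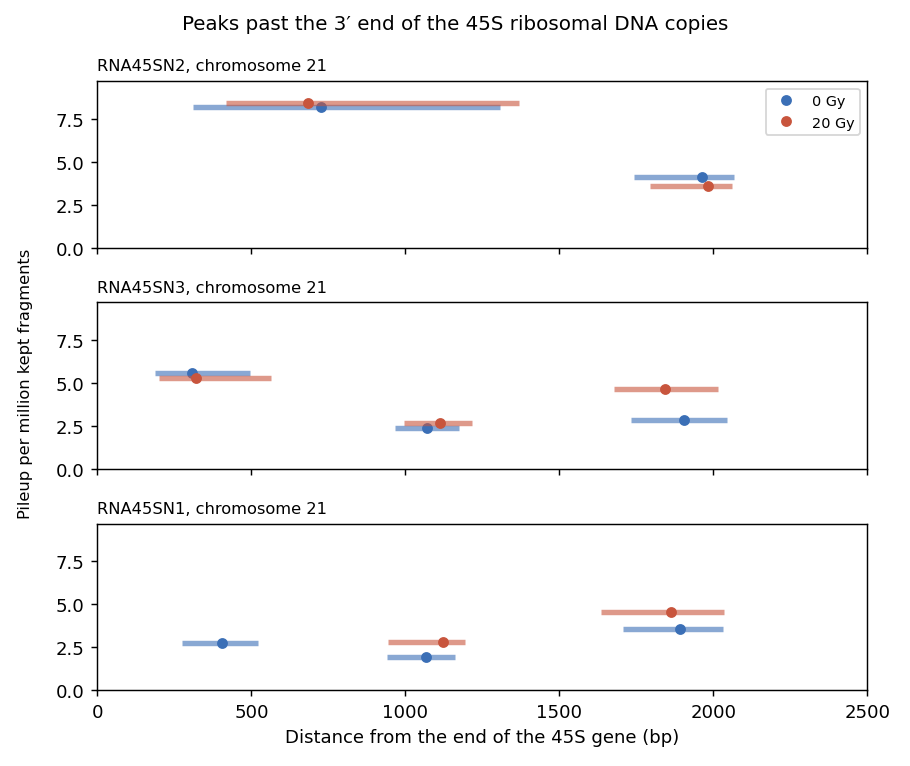
Peaks close past the 3′ end of the 3 copies of the 45S ribosomal RNA gene on chromosome 21, with height (pileup per 1000000 kept fragments) against distance from the gene end (bp). Bars give the extent of each peak and dots its summit, in blue for 0 Gy and red for 20 Gy, and a summit between 1842 and 1981 bp occurs past every copy in both libraries.

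Further high peaks of the short-arm side formed groups beside 4 annotated pseudogenes, 1 on chromosome 21 (LOC107985475) and 3 on chromosome 22 (LOC107987320, LOC107984030 and LOC107987322), again picked out after their values were seen. The groups held 17 peaks at 0 Gy, 15 of them shared, and 16 at 20 Gy, 14 of them shared. Pileups ran from 27 to 136 and from 21 to 83, yet fold enrichment over the local background was low, from 2.96 to 10.2 and from 2.74 to 7.97. Some summits recurred at similar distances in these groups and others did not. A summit stood 11256, 11305, 10987 and 11269 bp from the edge of the pseudogene at 0 Gy, with pileups of 68, 57, 98 and 60, and at 20 Gy the pileups there were 42, 36, 65 and 53. The first 3 pseudogenes also had a summit at 12092, 12049 and 12042 bp, with pileups of 92, 53 and 75 at 0 Gy and 51, 38 and 58 at 20 Gy, whereas LOC107987322 had 0 Gy summits at 12848, 13564 and 14358 bp. Summits at 8508 and 8492 bp occurred at 0 Gy beside the first 2 pseudogenes and not beside the others. On the other side of 3 of the 4 pseudogenes the table lists a copy of the mitochondrial gene MTCO3, at 25403, 25655 and 25617 bp. Whether the groups are copies of one sequence was not tested. The highest of these peaks, at chromosome 22, 12175703 to 12176608, had a pileup of 136 (114 to 161) at 0 Gy, and the 20 Gy peak over it had 83 (66.1 to 103).

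**Figure D5:**
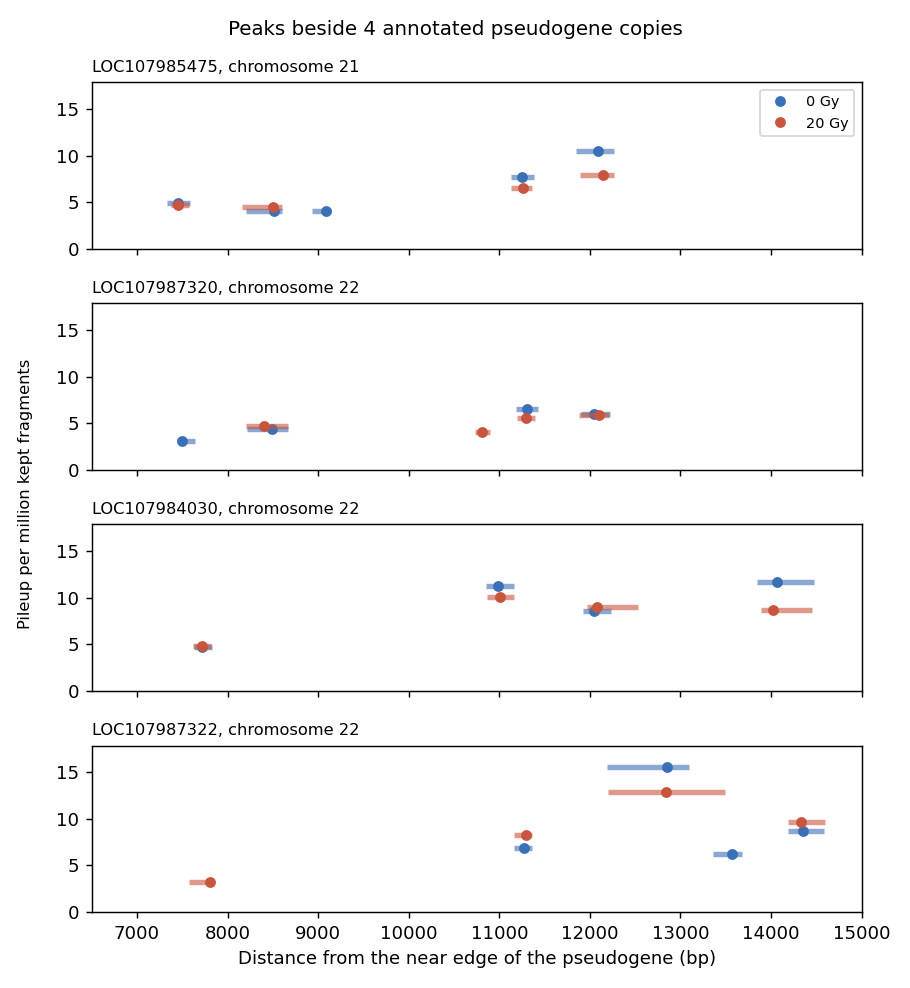
Peaks beside 4 annotated pseudogenes on the short-arm side of chromosomes 21 and 22, with height (pileup per 1000000 kept fragments) against distance from the near edge of the pseudogene (bp). Bars give the extent of each peak and dots its summit, in blue for 0 Gy and red for 20 Gy, and all 4 groups have a peak near 11 kb.

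On the long-arm side 6 of the 7 peaks at 0 Gy and 5 of the 7 at 20 Gy lay in or within 5000 bp of FAM230 genes. The table lists 10 of these genes, 6 of them below the position limit, and 5 of the 6 had such a peak in at least 1 library, 4 at 0 Gy and 4 at 20 Gy. These genes were picked out after their values were seen. The share of all genes of the region with a peak within 5000 bp was not computed. The counts for FAM230 genes therefore have no background to be set against. FAM230C, on chromosome 13 at 18195297 to 18232016, held the highest member of its chromosome, at 18211716 to 18212366, with a pileup of 112 (92.2 to 135) at 0 Gy and 73 (57.2 to 91.8) at 20 Gy and fold enrichments of 21 and 20.2. On chromosome 22, FAM230F held a peak with pileups of 37 and 29, and the sequence before FAM230E held one with 58 and 54. At the FAM230E promoter window printed above the pileups were 33 (22.7 to 46.3) and 26 (17.0 to 38.1), and the peak covered bases 1 to 243 at 0 Gy and 1 to 185 at 20 Gy. At the FAM230F window printed above, 1 of several of that gene, a peak with a pileup of 13 (6.92 to 22.2) covered bases 128 to 300 at 0 Gy. None was called there at 20 Gy. FAM230D had a pileup of 13 at 20 Gy alone, and a peak beside FAM230A had 17 at 0 Gy alone.

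The highest peaks found in 1 library only also lay on chromosome 22, past the gene-free interval. At 0 Gy the peak at 16347186 to 16347364 had a pileup of 147 (124 to 173) and a fold enrichment of 26.7, and was 179 bp long. At 20 Gy the peak at 16359730 to 16359902 had a pileup of 58 (44.0 to 75) and a fold enrichment of 20.7, and was 173 bp long, under the minimum length at 0 Gy. The next highest unshared peaks belonged to the groups beside the pseudogenes, with pileups of 36 and 27 at 0 Gy and 26 and 21 at 20 Gy. At the limit of the region, the last member was on chromosome 15, with a pileup of 6 in each library and no overlap. The first peak past the limit was on the same chromosome, with a pileup of 16 at 0 Gy and 10 at 20 Gy, and was shared.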

How the data were processed

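The analysis used 2 peak lists, 1 per library. Per the submitters' processing notes, the tools were BWA 0.7.15-r1140, Trimmomatic 0.36, MACS2 2.1.2, deepTools 3.2.1 and bcl2fastq 2.20.0.422, and the build was GRCh38.p13. Per the file headers, MACS2 called narrow peaks for each library separately in paired-end mode, at a q-value limit of 0.05, without a control and with duplicates removed, and the name of the input alignment carries the terms uniq and rmdup. How fragments matching several places were treated is not given in the sources used here. The deposited signal is the pileup at the summit. The deposited p-value and q-value of each peak are −log10 values, and its deposited fold enrichment is a ratio to the local background (up to 10000 bp) of that library, per the file headers.

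Members, gene lists and comparisons were chosen with earlier results of these data known. Overlaps of at least 1 bp, zones, depth-scaled ratios (per 1000000 kept fragments) and matching positions were computed with Python 3.11.15, pandas 2.3.3, NumPy 2.4.6, SciPy 1.17.1 and Biopython 1.88, and overlap counting and the search for shifts were tested on simulated data. Peaks named were the highest of each chromosome, the 3 strongest pairs, the 3 highest and 3 lowest ratios, the 3 highest unshared peaks, those in ribosomal DNA genes or family lists and those at the position limit. Genes came from a RefSeq table of GRCh38.p14, whose positions on some short arms count along scaffolds. Base composition, repeats and centromere protein motifs had been planned and were not analysed, since the only sequences used were RefSeq promoter windows.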

Additional observations from a re-analysis of the deposited data

How the results depend on the processing

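Of 62 recomputed values 46 held, meaning a share or ratio inside its interval or a count changed by less than 1.5 times, and 16 moved. With −log10 q-values limited to 3 or more, the 20 Gy peaks in ribosomal DNA genes fell to 1. At a limit of 5 they numbered 0, and the 20 Gy members 188, since a stricter limit keeps fewer peaks, and the 20 Gy overlap was 76.1%. When merging neighbours up to 10000 bp apart, 247 regions remained at 0 Gy, with overlap at 64.8% and 77.0% and the 20 Gy share of nuclear peaks at 22.2%. Counting corresponding positions of chromosomes 13, 14, 21 and 22 once, chosen after seeing the data, gave 222 and 173 members with overlaps of 61.3% and 78.0%. The median ratio of 1.06 became 1.00 relative to the other nuclear pairs and 0.945 as a ratio of fold enrichments. Counting protein-coding genes alone, 0% of summits lay in genes at 0 Gy and 0% at 20 Gy. Merging regions and counting positions once both make an overlap easier to meet, and how far this moved the overlaps was not tested. For the other settings the cause was not tested either. Equal minimum peak lengths, reciprocal overlap and other summit limits moved no value by that measure. No peak had a pileup below 6 (0 Gy) or 5 (20 Gy), so weaker peaks were not detectable at this depth. No paired analysis was possible because there was 1 library per group. Alternatives that need a genome sequence were not run.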

Other observations

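Recurrence of peaks at 1 constant shift was also present among chromosomes 1, 5 and 19, where the same search matched 133 to 147 summits per pair at 0 Gy and the same shifts matched 105 to 111 at 20 Gy. The shifts found in the libraries separately differed by 0 to 8 bp there. The pattern of chromosomes 13, 14, 21 and 22 is therefore not particular to the acrocentric chromosomes in these lists.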
